A study of Mus musculus with 9 samples.

Results

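The comparison described here sets mouse small intestinal organoids given the ligand TGF-beta1 against organoids given an inhibitor of the TGF-beta receptors. It rests on 6 of the 9 arrays of the series, chosen by the treatment in their labels: 3 with TGF-beta1 at 0.04 ng/mL and 3 with the inhibitor at 20 uM. Organoids are closed epithelial structures grown in culture from intestinal crypts. In both groups the agent was present for 5 days from day 1 of a 6-day culture. The other 3 arrays come from untreated organoids of the same culture length, which place the untreated level between or outside both treated levels. The members are all probe sets with 1 annotated gene symbol, 34945 of 45101, and after a filter on dim probe sets they gave 12941 genes, each read by 1 probe set. The sources used here do not name the inhibitor compound, its vehicle, the strain and age of the mice or the number of cultures behind each group. The groups differ in the agent as well as in its direction of action, so the doses cannot be matched and neither group is a control for the other. Whether the replicates of a group came from separate cultures is not in the labels, and the p-values therefore rest on a spread between arrays that may be technical.

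TGF-beta1 binds a complex of type I and type II receptor kinases, and the activated type I receptor phosphorylates Smad2 and Smad3, which enter the nucleus with Smad4 and change transcription. Among the genes they induce are inhibitors of the pathway itself, such as Smad7 and Skil, which form a negative feedback. In the intestinal epithelium the pathway is known for slowing the division of cells and for acting beside Wnt, Notch and BMP signals along the axis from the crypt base, where stem cells lie, to the villus.

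The arrays report a signal per probe set on a linear scale, which depends on the probes and is therefore compared only within a gene. Array medians lay between 46.1 and 57.9, and the level that the filter used was a signal of 25.9 to 32. Log2 values correlated at 0.989 to 0.993 within the ligand and inhibitor groups and at 0.946 to 0.95 between them. The tissue label was checked against 16 epithelial markers of the small intestine, all of which had a mean above the filter level, with summed signals of 105812 to 124661 on inhibitor and 100699 to 112450 on ligand arrays. Of the markers of other cell types, 15 of 20 for fibroblasts, 14 of 19 for leukocytes, 9 of 15 for endothelium and 6 of 14 for neurons and glia had a mean under that level. The fibroblast sum was 359 to 387 with inhibitor and 341 to 384 with ligand, the leukocyte sum 1238 to 1443 and 1729 to 2637, the endothelial sum 1108 to 1146 and 900 to 947, and the neuronal and glial sum 632 to 717 and 493 to 613. The leukocyte sum was mostly Lyz2, a lysozyme that Paneth cells also make, while Ptprc and Cd3e, which define leukocytes, had signals of 7.99 to 24.6 in both groups. Col1a1 of fibroblasts (12.1 to 22.2) and Pecam1 and Cdh5 of endothelium (2.29 to 21.6) lay in the same range. Other markers of these cells lay near or above the filter level. Means with inhibitor and ligand were 54.7 and 47.4 for Pdgfra and 30.0 and 34.4 for Col1a2 of fibroblasts. Those for Kdr of endothelium were 36.0 and 28.2. Some members of these lists were well above the filter level and differed. The macrophage genes Csf1r and Cd68 were at 140 ± 19 and 112 ± 19 with inhibitor and lower with ligand, at 57.5 ± 19.3 and 60.6 ± 7.8. Lyve1, the brightest endothelial member, was lower as well, at 264 ± 29 against 620 ± 28, and Esam higher, at 336 ± 27 against 120 ± 16. Ret, a receptor of enteric neurons, was lower, at 55.1 ± 17.7 against 162 ± 8, while the neurofilament gene Nefm was higher, at 82.4 against 48.2. Adgre1, another macrophage gene, named after its value was seen, did not follow Csf1r and Cd68. It had means of 57.8 with ligand and 56.5 with inhibitor. The part of these other cells in the results was not tested. The log2 ratio of 3 prime to 5 prime control probe sets for beta-actin, a sign of RNA quality, was 0.397 to 0.581 on ligand arrays and 0.179 to 0.238 on inhibitor arrays, with no overlap (exact permutation test, 2-sided p = 0.1, the smallest that 3 against 3 allows). That for Gapdh overlapped between the groups (p = 0.6, exact permutation test). The part of RNA quality in the results was not tested.

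The promoter sequences of 4 genes are shown for the roles they have below: Cym and Nid1 had the largest differences upward and downward with ligand, Olfm4 is a stem cell gene that was low with inhibitor alone, and Ccn1 is a TGF-beta target that was high with ligand alone. Each runs from 250 bases before to 50 bases after the annotated start, 5′ to 3′ on the gene's strand, from RefSeq on build GRCm38.p6. Capitals mark the core Smad box, CAGAC or GTCTG on the other strand. Cym lies at chr3:107221683-107221982 on the minus strand, Olfm4 at chr14:80000052-80000351 on the plus strand, Ccn1 at chr3:145649936-145650235 on the minus strand and Nid1 at chr13:13437352-13437651 on the plus strand.
Cym: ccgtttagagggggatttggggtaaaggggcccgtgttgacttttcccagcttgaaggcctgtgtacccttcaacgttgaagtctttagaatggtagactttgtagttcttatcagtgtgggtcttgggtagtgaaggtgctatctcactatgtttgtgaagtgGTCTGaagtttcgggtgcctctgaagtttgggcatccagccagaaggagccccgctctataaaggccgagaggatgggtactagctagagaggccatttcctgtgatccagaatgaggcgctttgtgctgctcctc
Olfm4: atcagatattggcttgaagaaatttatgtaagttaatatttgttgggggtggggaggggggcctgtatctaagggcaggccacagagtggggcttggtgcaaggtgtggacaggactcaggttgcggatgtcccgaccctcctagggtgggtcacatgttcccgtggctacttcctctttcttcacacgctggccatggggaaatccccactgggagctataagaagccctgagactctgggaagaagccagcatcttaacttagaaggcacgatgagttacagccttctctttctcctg
Ccn1: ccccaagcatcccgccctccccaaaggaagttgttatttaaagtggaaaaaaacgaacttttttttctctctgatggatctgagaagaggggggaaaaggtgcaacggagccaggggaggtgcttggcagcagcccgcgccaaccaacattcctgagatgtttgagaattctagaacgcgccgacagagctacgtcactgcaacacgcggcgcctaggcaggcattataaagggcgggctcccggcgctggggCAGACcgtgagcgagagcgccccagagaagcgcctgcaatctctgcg
Nid1: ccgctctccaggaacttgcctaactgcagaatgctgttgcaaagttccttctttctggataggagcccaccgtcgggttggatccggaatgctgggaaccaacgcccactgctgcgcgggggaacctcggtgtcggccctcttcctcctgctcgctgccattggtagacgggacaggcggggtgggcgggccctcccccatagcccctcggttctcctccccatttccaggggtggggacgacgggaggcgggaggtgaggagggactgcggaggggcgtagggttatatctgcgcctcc
The box starts at -86 in Cym and at 4 in Ccn1, counted from the start, and is in neither the Olfm4 nor the Nid1 window. It is in 49.6% of all 32851 mouse promoters of this length and in 8 of the 19 of the 24 leading genes that had a promoter entry. TATAAA, searched on both strands like the others, is in 13.6% of all promoters and in 7 of those 19, and the AP-1 site TGANTCA in 7.81% and in 2. A Smad box and an AP-1 site can share letters, so matches of these motifs can overlap. A match describes these letters in this window only.

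Between ligand and inhibitor, 7189 of the 12941 genes tested differed at an adjusted p under 0.05 (limma, Benjamini-Hochberg), which is 55.6% and is the background against which every count below is read. Of these, 4216 (32.6% of the genes tested) were higher and 2973 (23%) lower with ligand. Such genes are termed called here. A difference of at least 2-fold was reached by 1275 called genes (9.85%), of which 773 (5.97%) were higher and 502 (3.88%) lower. At least 4-fold was reached by 100 higher and 50 lower genes, and at least 16-fold by 7 higher genes and 1 lower gene. In 7841 genes (60.6%) the 3 values of 1 group all lay on one side of the other group's, with ligand above in 35.1% and below in 25.5% of the genes tested. Log2 changes are of log2(signal + 16), ligand minus inhibitor, given ± SE, and signals are given as means ± SD, with 3 arrays per group throughout. The median log2 change of all genes was 0.07, and centring each array on its median instead moved it by -0.16. That scaling also lowered the share of called genes that were higher from 58.6% to 41.9%, and quantile normalization lowered it to 51.6%.

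**Figure D1:**
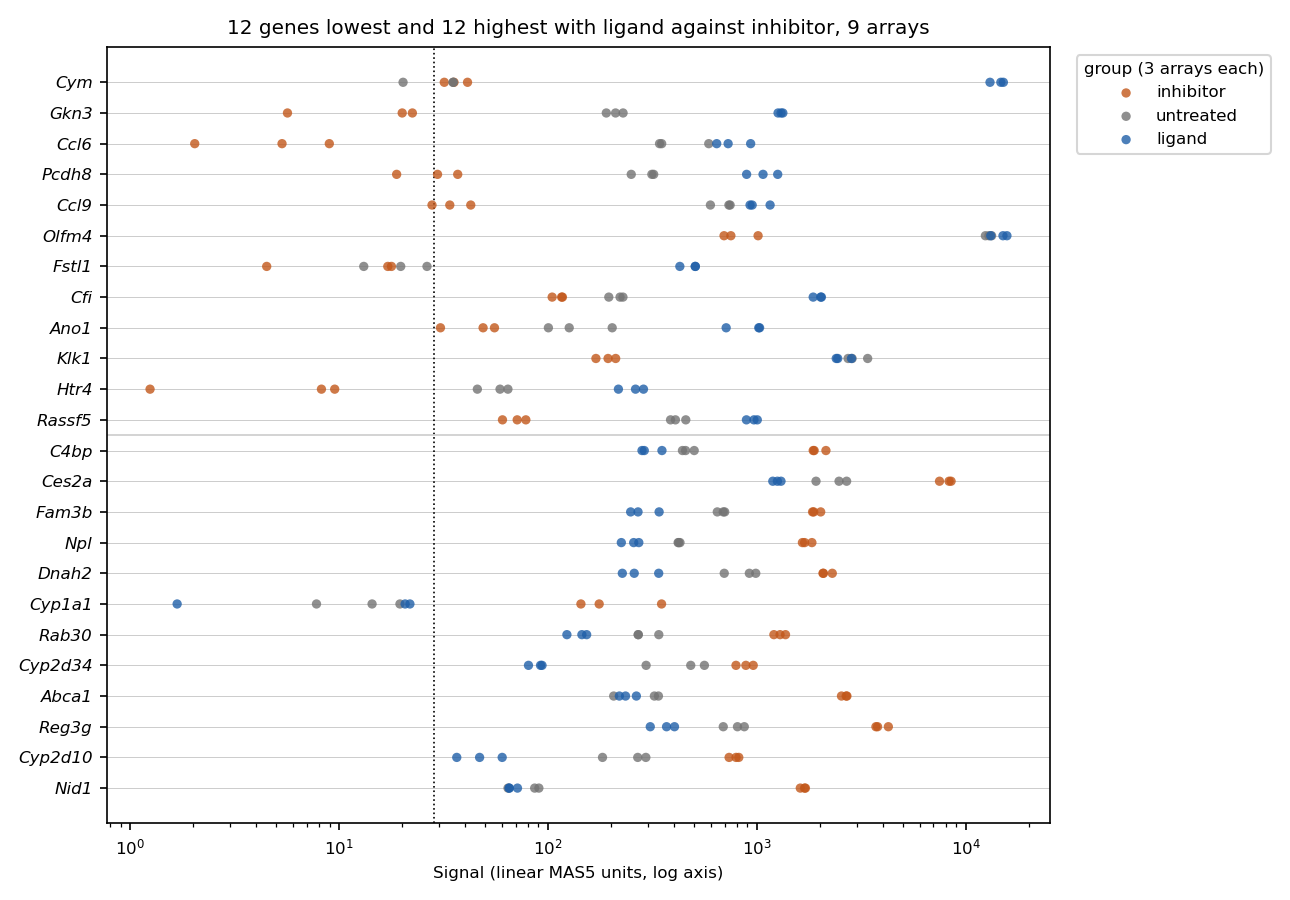
Signal on each of the 9 arrays (log axis) for the 12 genes highest and the 12 lowest with ligand against inhibitor, where points are single arrays coloured by group and the dotted line is the mean filter level. For Cym the 3 ligand arrays sit between 13052 and 15123, and the inhibitor and untreated arrays all lie under 42.

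Cym, Gkn3 and Olfm4, known from the stomach or the crypt base, were among the 12 genes highest with ligand. Cym, which encodes chymosin, the milk-clotting protease of the young stomach, had signals of 13052, 14706 and 15123 on the ligand arrays, and 41.2, 35.5 and 31.9 on the inhibitor arrays. The change was 8.10 ± 0.13 on the log2 scale, or 275-fold, the largest of the genes tested. Untreated arrays read 35.1, 20.2 and 35.2, so the inhibitor and untreated arrays both lay near the filter level. Gkn3, a gastrokine of the stomach that also marks cells of the crypt base, read 1304, 1330 and 1262 with ligand and 5.66, 22.4 and 20.0 with inhibitor. The inhibitor values lay under the filter level, so its difference is given against that level instead, as at least 46.7-fold. The same is done below for other genes with 1 group under that level. Olfm4, a secreted glycoprotein that marks crypt base stem cells, read 13159, 15728 and 15058 with ligand and 750, 696 and 1013 with inhibitor, a 17.7-fold difference (4.15 ± 0.12). Its untreated signals of 12404, 13284 and 12895 overlapped those of the ligand group and lay far above those of the inhibitor group. The list of stomach genes as a whole had 7 of 16 members higher, 2 lower and 7 not called, with a median of 0.32, and the gastrin gene Gast was lower, under the filter level with ligand (at least 2.33-fold).

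The rest of the 12 highest held chemokine, complement, channel and receptor genes. Of the CC chemokine genes, Ccl9 differed by 4.34 ± 0.13 and Ccl6, under the filter level on all 3 inhibitor arrays, by at least 27.3-fold. Cfi, complement factor I, a protease that inactivates complement, read 1859, 2035 and 2019 with ligand and 117, 116 and 105 with inhibitor (3.95 ± 0.09). Fstl1, a secreted relative of follistatin, read 507, 507 and 427 with ligand and 4.50, 17.1 and 17.8 with inhibitor, a difference of at least 17.2-fold. For Cfi the ligand arrays stood apart from both other groups. Those of Fstl1 did so too, but they alone carried it through the filter, so this was a condition of its being tested. For Klk1, tissue kallikrein, the inhibitor arrays stood apart instead, with 2555 ± 242 with ligand and 2991 ± 350 in untreated organoids against 191 ± 21 with inhibitor. The remaining genes were the protocadherin Pcdh8 (at least 38.2-fold), the calcium-activated chloride channel Ano1 (3.95 ± 0.22), the serotonin receptor Htr4 (at least 9.13-fold) and the Ras and Rap effector Rassf5 (3.50 ± 0.10). With both group means held to signals of at least 100, the rule added Ifitm3, an interferon-induced membrane protein (3.11 ± 0.10), the myosin light chain Myl7 (3.10 ± 0.12), the phospholipase Pla2g4a (3.08 ± 0.12), Mreg (3.02 ± 0.13) and the secreted ribonuclease Rnase1, at 2420 ± 367 against 287 ± 23.7.

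The 12 genes lowest with ligand included a basement membrane protein, an antibacterial lectin, a cholesterol exporter and 3 cytochrome P450 genes. Nid1, nidogen, which links laminin and collagen networks in the basement membrane, read 65.2, 65.1 and 71.4 with ligand and 1612, 1690 and 1706 with inhibitor (-4.34 ± 0.11, a 20.3-fold difference). Its untreated signals were 64.3, 86.3 and 90.4, so the inhibitor group alone stood high. Reg3g, an antibacterial lectin of the epithelium, read 309, 369 and 403 with ligand and 3712, 3780 and 4256 with inhibitor (-3.39 ± 0.10). Abca1, which exports cholesterol from cells, read 265, 219 and 235 with ligand and 2674, 2696 and 2539 with inhibitor (-3.38 ± 0.14), or -1.96 when its probe sets were averaged. The cytochrome P450 genes Cyp2d10 (-3.66 ± 0.16), Cyp2d34 (-3.09 ± 0.17) and Cyp1a1, with a ligand mean under the filter level (at least 6.85-fold), were also among the 12. The others were the Golgi GTPase Rab30 (-3.06 ± 0.11), the dynein heavy chain Dnah2 (-2.91 ± 0.14), the sialic acid lyase Npl (-2.71 ± 0.08), Fam3b (-2.68 ± 0.10), the carboxylesterase Ces2a (-2.68 ± 0.11) and the complement regulator C4bp (-2.62 ± 0.09). The highest adjusted p among these 24 genes was 5.88e-06, that of Cyp1a1 (limma).

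Of the direct targets and feedback inhibitors of TGF-beta signalling, 11 of 23 tested members (30 listed) were higher with ligand, 4 were lower and 8 were not called, with a median log2 change of 0.26 beside 0.07 for all genes. With median centring 9 were higher and 5 lower, with a median of 0.10. Pmepa1, a membrane protein that sequesters Smads, read 707, 616 and 569 with ligand and 89.9, 78.9 and 82.3 with inhibitor (2.69 ± 0.11). Untreated organoids read 198, 188 and 228, between the groups without overlap. Skil, a repressor of Smad transcription, read 2221, 2198 and 2514 with ligand and 952, 959 and 954 with inhibitor (1.26 ± 0.08), and its untreated signals of 922, 898 and 1036 spanned those of the inhibitor group. Smad7, the inhibitory Smad, read 210, 220 and 249 with ligand and 172, 148 and 112 with inhibitor, a smaller difference of 0.61 ± 0.15 (adjusted p 0.0033, limma). The matricellular genes Ccn1 (2.10 ± 0.09) and Ccn2 (1.30 ± 0.20) and the corepressor Tgif2 (1.38 ± 0.08) were higher as well. Tgfbi, an extracellular matrix protein named for its induction by TGF-beta, overlapped between the groups at 154 ± 22 and 114 ± 29, and its adjusted p of 0.0439 lost the call in many other settings, for example without inhibitor replicate 1 (0.14) or 3 (0.169), without ligand replicate 1 (0.114) or 2 (0.145) and under quantile normalization (0.285).

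The 4 lower members of that list include inhibitors of cyclin-dependent kinases. Cdkn2b, which encodes p15 and is a textbook target raised by TGF-beta in epithelial cells, read 672, 660 and 567 with ligand and 1780, 1778 and 1783 with inhibitor (-1.47 ± 0.09). Cdkn1a, which encodes p21, read 3094, 2679 and 3443 against 4914, 4769 and 4998 (-0.68 ± 0.09). Neither gene's groups overlapped, and in both the untreated mean, 984 ± 114 and 3624 ± 142, lay between them. Cdkn1b, which encodes p27, was not called (-0.06 ± 0.16, 95% interval -0.40 to 0.28). Smurf2 (-0.30), a ubiquitin ligase that acts against TGF-beta receptors and Smads and was named after its value was seen, was also lower.

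Of 12 receptors and Smads tested, 6 were higher and 1 lower, with a median of 0.21, and with arrays centred on their medians 4 were higher and 3 lower. Smad5, a Smad of the BMP branch, was higher by 1.47 ± 0.08, or 0.93 with its probe sets averaged. Tgfbr1, the type I receptor, was higher by 0.57 ± 0.07, at 1728 ± 81 against 1162 ± 27, and Smad3 by 0.53 ± 0.07, which was not called with its probe sets averaged (0.19, adjusted p 0.186). Acvr2a, an activin receptor, was the lower member (-0.49 ± 0.07). In the BMP list 4 of 12 members were higher and 1 was lower, shares of the order of the 32.6% and 23% of all genes. The higher members, each an immediate target of BMP signalling, were Smad6 (at least 7.12-fold), Id1 (1.94 ± 0.09), Id3 (1.59 ± 0.14) and Id2 (1.00), named to complete the count. Id1 read 1136, 1169 and 1475 with ligand and 318, 307 and 322 with inhibitor, while the ligand gene Bmp2 was lower at 640 ± 38 against 1170 ± 120 (-0.85 ± 0.08). The list's median of 0.05 turned to -0.11 with median centring.

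**Figure D2:**
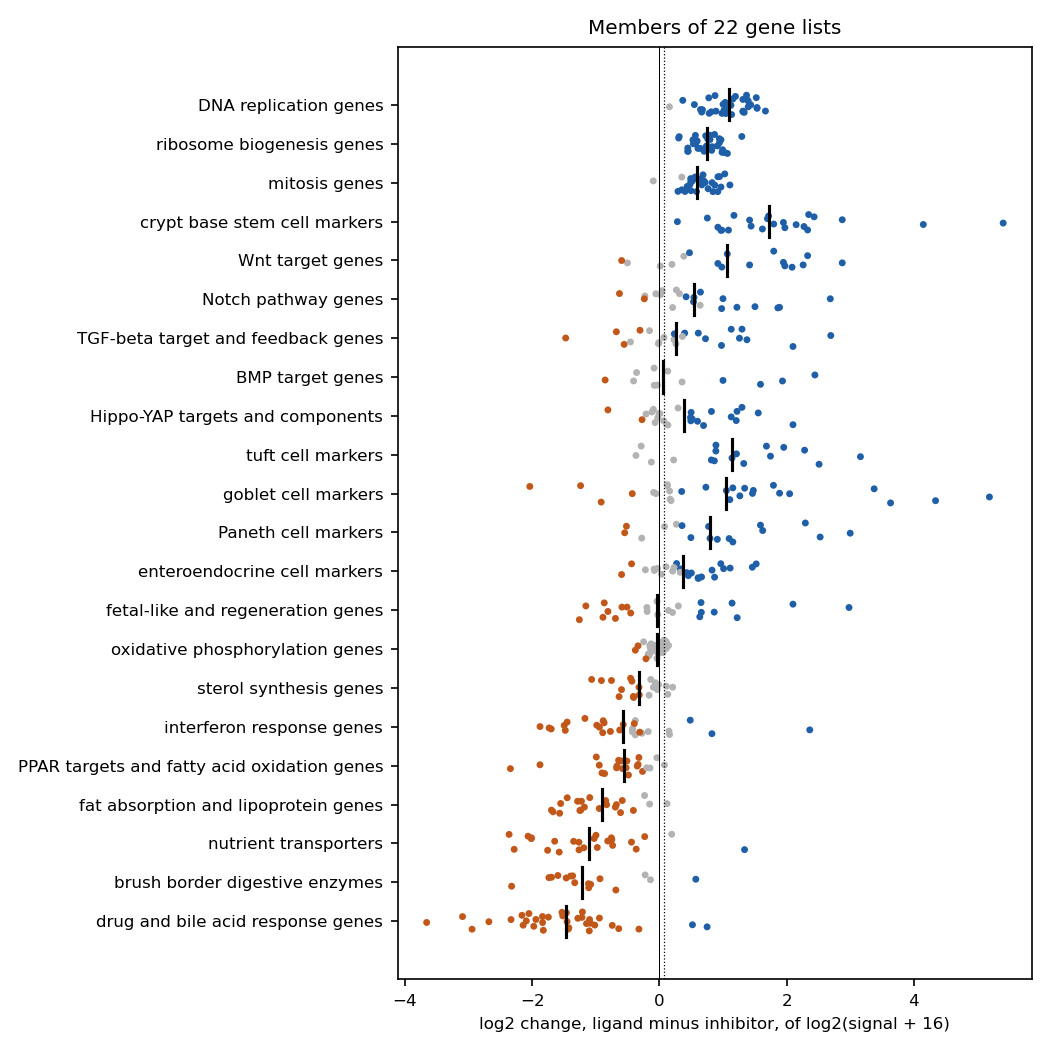
Log2 change, ligand minus inhibitor, of every tested member of 22 gene lists, with blue for members called higher, orange for members called lower and grey for the rest. Black bars are list medians and the dotted line is the median of all genes, 0.07, and the bars run from 1.72 for crypt base stem cell markers to -1.46 for drug and bile acid response genes.

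Genes of the crypt were higher with ligand. All 23 tested stem cell markers (25 listed) were called higher, 18 of them by at least 2-fold, with a median of 1.72, and 22 to 23 were called in the 21 other settings in which lists were counted. Lgr5, the R-spondin receptor that defines these cells, read 4043, 4196 and 4470 with ligand and 1555, 1576 and 1591 with inhibitor (1.42 ± 0.08). Ascl2, a transcription factor of stem cell identity, read 1196, 1246 and 1257 against 148, 152 and 163 (2.87 ± 0.09). Both had untreated means between the groups, 2542 ± 306 and 555 ± 57. Wnt targets were higher in 12 of 17 members, with a median of 1.07, among them Axin2, a feedback inhibitor of Wnt signalling (2.33 ± 0.11), the cyclin Ccnd1 (2.09 ± 0.06), the ubiquitin ligase Rnf43 (1.95 ± 0.09) and Myc (1.07 ± 0.08). In whole organoids, fewer cells of a type and less RNA per cell cannot be told apart, here and in what follows.

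Genes of growth and division were higher with ligand too. Of 34 genes of DNA replication 33 were higher and 0 lower, with a median of 1.10. Mcm6, a subunit of the replicative helicase, read 4279, 4020 and 4615 with ligand and 1546, 1449 and 1424 with inhibitor (1.54 ± 0.07). The licensing factor Cdc6 (1.52 ± 0.08), Mcm2 (1.40 ± 0.07) and Mcm3 (1.40 ± 0.06) had changes of like size. Of 31 mitosis genes 29 were higher and 0 lower, but only 2 by at least 2-fold, and their median was 0.58. Among them Top2a, a topoisomerase, differed by 0.94 ± 0.07, the spindle kinesin Kif11 by 0.87 ± 0.06 and Mki67, a marker of dividing cells, by 0.58 ± 0.08. All 34 genes of ribosome biogenesis were higher, 3 of them by at least 2-fold, with a median of 0.74, for example Rrp1b (1.30 ± 0.09) and the pseudouridine synthase Dkc1 (1.07 ± 0.08). The higher replication genes stand beside the lower Cdkn2b and Cdkn1a given above.

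Notch genes and the secretory lineages followed the same direction in their majority of called members. Notch pathway members were higher in 11 of 21 and lower in 2, with a median of 0.54. The higher members included the Notch-modifying glycosyltransferase Lfng (2.69 ± 0.16), the secretory fate factor Atoh1 (1.89 ± 0.12), the feedback inhibitor Nrarp (1.00 ± 0.08) and the ligand Dll1 (0.98 ± 0.07). Hes1, a Notch effector that represses Atoh1, was higher as well (0.54 ± 0.07). Atoh1 read 432, 477 and 550 with ligand and 118, 132 and 108 with inhibitor. Goblet cell markers were higher in 16 of 27 members and lower in 4, with a median of 1.05. The difference was at least 2-fold in 14 of the higher and 2 of the lower members, and the lowest change was -2.04. The members named here are all from the higher or uncalled ones. Klk1, Ccl6 and Ccl9 belonged to the higher ones, as did Creb3l4, a transcription factor, at 278 ± 57 against 12.3 ± 5.7 (at least 9.86-fold). The mucin gene Muc2, the main secreted product of goblet cells, was not called (0.13 ± 0.08, 95% interval -0.04 to 0.29), except under quantile normalization (0.20, adjusted p 0.0279).

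Paneth cell markers were higher in 12 of 17 members and lower in 2, with a median of 0.80, for example Rnase1, the colipase gene Clps (2.53 ± 0.10) and the pentraxin Mptx1 (2.29 ± 0.17). The lysozyme gene Lyz1 was not called on its main probe set, at 166 ± 27 and 135 ± 13, but its brighter probe sets ending in _x_at differed by 0.45 and 0.56 with adjusted p of 0.0153 and 0.00273 (limma, probe sets one by one). Tuft cell markers were higher in 13 of 17 and lower in 0, with a median of 1.14. Rgs13, a regulator of G protein signalling (3.16 ± 0.21), Alox5ap, which leukotriene synthesis needs (2.51 ± 0.18), the tuft cell kinase Dclk1 (at least 6.94-fold) and the actin-binding protein Avil (1.95 ± 0.13) were among them. With the filter at the 60th percentile, which tests fewer genes, 5 tuft markers were called higher. Enteroendocrine markers were higher in 15 of 26 and lower in 2, with a smaller median of 0.38. The largest change was that of Pyy (1.52), which ran from 0.90 to 2.00 in the other settings. The transcription factors Nkx2-2 (1.46 ± 0.10), Insm1 (1.11 ± 0.16) and Isl1 (1.01 ± 0.13) were higher too, with the granule protein Chga at 0.83 ± 0.12. With quantile normalization 13 of 26 enteroendocrine markers were higher, and with median centring 12. In all 4 secretory lineages more members were called higher than lower, while Muc2 and the main Lyz1 probe set were not called.

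**Figure D3:**
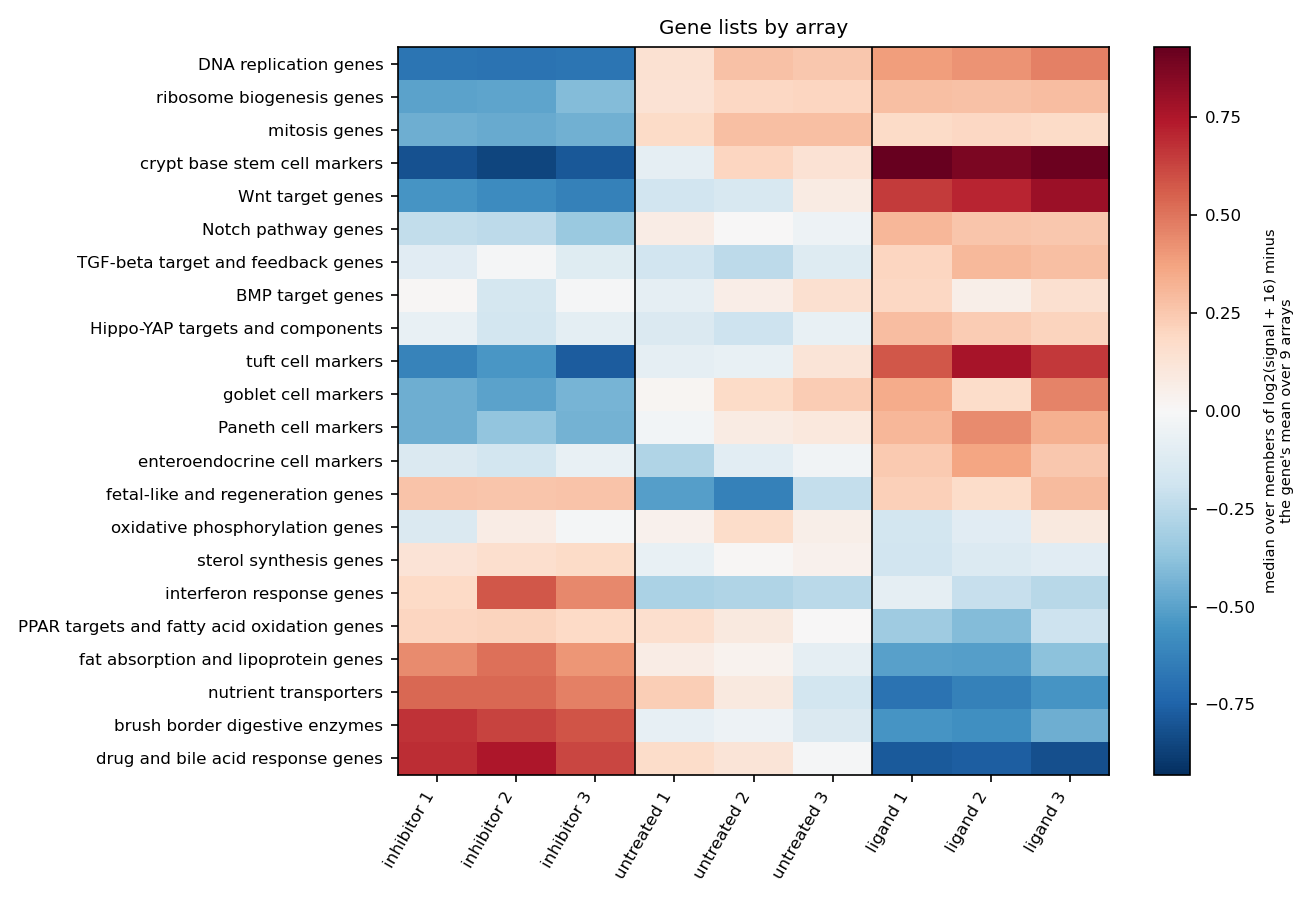
Median over the tested members of each of 22 lists, on each array, of log2(signal + 16) minus the gene's mean over 9 arrays, in colour from blue (below) to red (above). Stem cell markers sit at -0.85 to -0.79 on inhibitor and 0.88 to 0.93 on ligand arrays, and drug and bile acid response genes at 0.62 to 0.75 and -0.82 to -0.76.

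Genes of the absorptive enterocyte were lower with ligand. Of 16 tested digestive enzymes and other proteins of the brush border, 13 were lower and 1 higher, with a median of -1.22. Anpep, aminopeptidase N, read 585, 506 and 565 with ligand and 2895, 2693 and 2877 with inhibitor (-2.32 ± 0.09). The peptidases Dpp4 (-1.74 ± 0.07, or -0.98 with its probe sets averaged), Enpep (-1.46 ± 0.10) and Mep1b (-1.36 ± 0.07) followed. The 1 higher member was the lactase gene Lct, named after its value was seen, which splits milk sugar (0.57). Alpi, intestinal alkaline phosphatase, was not called (-0.14 ± 0.10, 95% interval -0.35 to 0.07), except without ligand replicate 3 (-0.24, adjusted p 0.0275).

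Nutrient transporters were lower in 22 of 24 members and higher in 1, with a median of -1.11. The cystine and basic amino acid transporter subunits Slc3a1 (-2.28 ± 0.08) and Slc7a9 (-1.65 ± 0.10), the anion exchanger Slc26a6 (-2.01 ± 0.11) and the glucose transporter Slc2a2 (-1.76 ± 0.10) were the named members. Slc2a2 read 1391, 1211 and 1572 with ligand and 4668, 4924 and 4552 with inhibitor, and its untreated signals of 4649, 4282 and 3607 reached those of the inhibitor group. The 1 higher transporter, Slc1a1 (1.34), carries glutamate and was named after its value was seen. Genes of fat absorption and lipoprotein assembly were lower in 21 of 24 members and higher in 0, with a median of -0.90. Among them the cholesterol uptake protein Npc1l1 differed by -1.70 ± 0.10, Mttp, which loads lipid onto apolipoprotein B, by -1.67 ± 0.09, and Mogat2, which rebuilds triglycerides from absorbed fat, by -1.45 ± 0.09.

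Drug and bile acid response genes had the lowest median of the lists, -1.46. Of 35 members, 33 were lower, at least 2-fold in 29, and 2 higher. Cyp2c55 read 1961, 2077 and 2362 with ligand and 10172, 11454 and 10726 with inhibitor (-2.33 ± 0.08). Cyp3a11 (-2.09 ± 0.11), Cyp2b10 (-1.97 ± 0.09), Cyp3a13 (-1.84 ± 0.07) and the sulfotransferase Sult1d1 (-2.14 ± 0.09) had signals several times lower with ligand. The higher members, Gstt1, a glutathione transferase (0.52), and Nr0b2, a repressor in bile acid feedback (0.75), were named after their values were seen. In the joint list of PPAR targets and fatty acid oxidation genes 18 of 22 were lower and 0 higher, with a median of -0.55. Examples are the peroxisomal thiolase Acaa1b (-2.34 ± 0.15) and the lipase inhibitor Angptl4 (-1.88 ± 0.10). In the cholesterol efflux list 6 of 14 were lower and 1 higher, with a median of -0.03. Besides Abca1 the lower members included Abcg5 (-2.55 ± 0.09) and Abcg8 (-1.35 ± 0.09), which together pump sterols out of the cell. The 1 higher member, Myrip (at least 4.23-fold), is an adaptor between vesicles and myosin and not a gene of cholesterol transport.

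Not every function of the cell differed. Of 35 genes of oxidative phosphorylation, 3 were lower and 0 higher, with a median of -0.04, and the 95% intervals of all 35 lay within 1.5-fold in either direction. That was so for 5688, or 44.0%, of all genes tested. The lower members were Sdhc, a subunit of complex II (-0.38 ± 0.06), Cycs, cytochrome c (-0.34 ± 0.11), and Uqcrfs1, a subunit of complex III (-0.21 ± 0.08), and the count of lower members ran from 1 without inhibitor replicate 2 or 3 to 9 without ligand replicate 3. Cycs and Uqcrfs1 lost their calls in several of these settings. Of the 16 epithelial markers of the small intestine, 5 were called higher and 4 lower, from Krt20 (-1.27) to Lgr5 (1.42), and 7 were not called. Both shares are of the order of the 32.6% and 23% of all genes, so this list differed about as often as genes in general. Epcam (0.08 ± 0.09, 95% interval -0.12 to 0.27) and Cdh1, E-cadherin (-0.12 ± 0.10, -0.33 to 0.09), were among those not called. Villin, Vil1, an actin bundler of microvilli, was lower with ligand (-0.65 ± 0.07), at 4993 ± 185 against 7858 ± 489.

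Interferon response and defence genes were mixed with a lower majority. Of 29 interferon response genes 17 were lower and 3 higher, with a median of -0.57, including Oasl1 (-1.73 ± 0.11), Ifi27 (-1.50 ± 0.09) and the transcription factor Irf7 (-1.45 ± 0.10), and 13 to 23 were lower in the other settings. Ifit2, an interferon-induced protein, was higher, at 185 ± 22 against 23.4 ± 8.1 (at least 6.62-fold). Of 24 antimicrobial, complement and chemokine genes 11 were lower and 6 higher, with a median of -0.34, and Reg3g stood at the lower end and Ccl6, Ccl9 and Cfi at the upper end of this list.

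Genes of the matrix and of fetal-like and regenerating epithelium were called in both directions, and those of the Hippo pathway mostly upward. In the list of epithelial-mesenchymal transition and matrix genes 8 of 28 tested members (44 listed) were higher and 5 lower. These shares are of the order of the 32.6% and 23% of all genes. The median of 0.10 turned to -0.06 with median centring. Fstl1, the metalloproteinase inhibitor Timp3 (at least 5.77-fold) and the membrane protease Mmp14 (1.03 ± 0.08) were higher and Nid1 lower. Of 24 fetal-like and regeneration genes 8 were higher, a share of the order of the 32.6% of all genes, and 9 lower, beside 23% of all genes. Clu, clusterin, which marks revival stem cells in damaged epithelium, read 2841, 2954 and 2312 with ligand, 343, 322 and 315 with inhibitor and 82.0, 66.2 and 139 without treatment. Both treated groups stood above the untreated one for Clu, and they differed from each other by 2.98 ± 0.18. Cd55, a complement regulator, was lower with ligand (-1.26 ± 0.08, or -0.70 with its probe sets averaged), while the keratin Krt7 was higher (1.22 ± 0.08). Of 26 Hippo and YAP genes 13 were higher and 2 lower, with a median of 0.39, including Ccn1, the transcription factor Tead2 (1.55 ± 0.15) and Yap1 itself (0.49 ± 0.07, or 0.28 with its probe sets averaged). Jun, a component of AP-1, read 1177, 1125 and 1065 with ligand and 483, 453 and 437 with inhibitor (1.27 ± 0.10), in a list of immediate early genes with 5 of 25 higher and 11 lower.

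Since both agents can move a gene away from the untreated level, the untreated arrays were used to ask on which side of the midpoint between ligand and inhibitor that level lay. The contrast of ligand plus inhibitor minus 2 times untreated is independent of the difference between ligand and inhibitor when groups are of equal size. It was called for 3079 of 12941 genes (23.8%), and for 2025 without untreated replicate 2. Against the untreated arrays themselves, which both comparisons share, 3125 genes (24.1%) were called for ligand and 5837 (45.1%) for inhibitor. Among the 1275 genes that differed by at least 2-fold, the untreated level was nearer the ligand level in 486 (38.1%), nearer the inhibitor level in 164 (12.9%) and not called to either side in 625 (49.0%). The higher genes split into 273, 111 and 389 and the lower genes into 213, 53 and 236. On a scale from 0 at the inhibitor level to 1 at the ligand level, the median untreated position was 0.616 for the higher and 0.648 for the lower genes. For genes with a group under the filter level, which are among these, the position depends on the offset of 16.

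**Figure D4:**
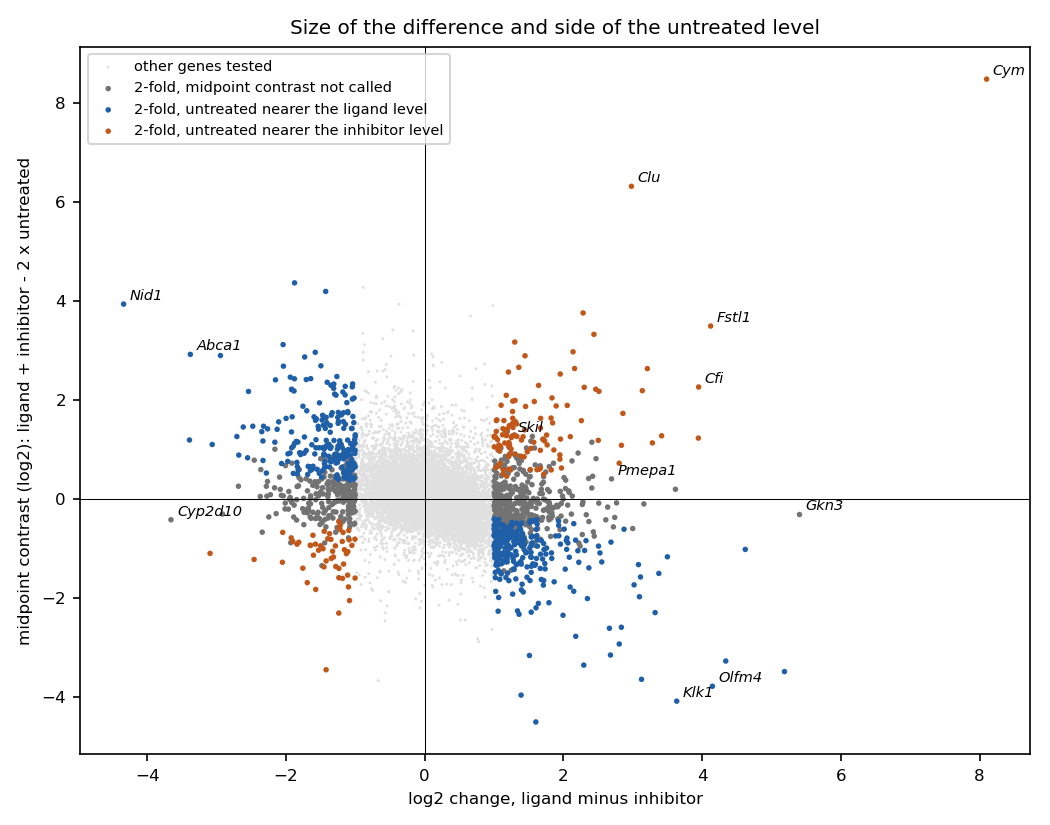
Log2 change between ligand and inhibitor (horizontal) against the midpoint contrast, ligand plus inhibitor minus 2 times untreated on the log2 scale (vertical), 1 point per gene. Blue points are the 486 genes at least 2-fold apart whose untreated level was nearer the ligand level, orange points the 164 nearer the inhibitor level, and Cym and Nid1 lie at the upper right and upper left.

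Named genes fell on both sides. The untreated level was nearer the ligand level for Olfm4 (position 0.956), Klk1 (1.06), Nid1 (0.954) and Abca1 (0.933), for which the inhibitor arrays stood apart. The untreated level was nearer the inhibitor level for Cym (-0.0235), Skil (-0.00584), Ccn1 (0.200) and Cfi (0.213), for which the ligand arrays stood apart. It lay close to the middle, with no call, for Lgr5 (0.479), Axin2 (0.568), Pmepa1 (0.424) and Fam3b (0.548). For Clu (-0.560) and Ccn2 (-0.721) it lay below both treated levels, and the midpoint contrasts of 6.32 and 3.17 were called.

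The lists differed in the same reading. Of the 22 DNA replication genes at least 2-fold apart, 21 had an untreated level nearer the ligand level and 0 nearer the inhibitor level. Mcm6, for example, had an untreated mean of 3492 ± 130 between 1473 ± 65 with inhibitor and 4305 ± 299 with ligand. For mitosis genes the list medians per array overlapped between untreated (0.18 to 0.28) and ligand arrays (0.17 to 0.19). Those of the inhibitor arrays alone were lower, at -0.47 to -0.45. Of the 6 Hippo and YAP genes at least 2-fold apart, 0 were nearer the ligand level and 5 nearer the inhibitor level, and of the 7 TGF-beta targets 1 and 4. The 18 stem cell markers split into 5 and 4 with 9 not called, and the 9 tuft cell markers into 0 and 1 with 8 not called. These counts stand beside 38.1% and 12.9% over all genes at least 2-fold apart. Among drug and bile acid response genes, 29 in all, 9 were nearer the ligand level and 7 nearer the inhibitor level.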

How the data were processed

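RNA of 9 organoid samples was read on Affymetrix Mouse Genome 430 2.0 arrays after 3 prime amplification and biotin labelling, per the labels. The table deposited by the authors gives intensities, 1 linear signal for each probe set on each array, made with MAS5 per the submitters' processing notes. The sources used here give no version. The trimmed mean was 350 on each array, so 1 factor per array sets the scale and any difference in total RNA is lost. MAS5 leaves dim signals noisy, and 28.9% of values lay at or below 16.

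Names came from the platform annotation: 34945 had 1 symbol, 932 several and 9160 none there, and 64 were controls. Of those with 1 symbol, 34741 matched a mouse gene table by Entrez identifier. Signals were turned into log2(signal + 16), which understates changes of dim genes. A probe set was kept, as were 23887, if its signal passed the 40th percentile of the array on 3 or more of the 9. The brightest probe set stood for each gene, with one ending in _x_at only where there was no other. All 9 arrays entered 1 fit of group means in limma 3.58.1 (R 4.3.3), with 6 residual degrees of freedom, moderated variances with an intensity trend and 2-sided tests, and genes were called at a Benjamini-Hochberg adjusted p of 0.05 over all genes. The untreated arrays enter the spread and the midpoint contrast. With 3 arrays per group, their number limits the precision. The script was tested on simulated data. Figures were drawn with matplotlib 3.10.9.

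The members, the 44 gene lists (1083 genes, 867 tested, 92 not analysed here) and the tests were chosen with earlier results of these data known, so lists are described by counts and medians without tests. Lists share members. Genes named are the 12 highest and 12 lowest called genes whose groups do not overlap, the 8 and 8 with both means of at least 100, up to 4 members per list with the smallest p, a set of fixed genes, and the 4 with the largest opposite probe set changes. A gene named outside this rule is said to be so. Promoters of 300 bases came from RefSeq. Alternatives were other offsets, filters, scalings, variance models, probe set rules and samples, a replicate block, and leaving out each array.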

Additional observations from a re-analysis of the deposited data

How the results depend on the processing

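Of the 186 called named genes, 174 kept their call and direction in each other setting that gave them a value, at most 21 settings and fewer for some dim genes. The 12 others lost it in at least 1: B2m, Cdx2, Cycs, Egfl7, Rmdn1, Sc5d, Smad3, Tbp, Tfrc, Tgfbi, Ttc14 and Uqcrfs1. Fstl1 and Cyp1a1 had a value in 18 settings and Gast in 17. A gene that passes the filter through 1 group alone fails it once an array of that group is left out. Of 1848 counts of list members over the settings, 1748 stayed within 1.5 times the main count and 100 did not. An offset of 64 left 807 genes at least 2-fold apart. Testing probe sets one by one called 11806 of 23887 probe sets, of them 7039 higher and 4767 lower, with 2066 at least 2-fold apart. For inhibitor against untreated it called 9040. These are counts of probe sets and not of the 12941 genes, so they do not mean that a larger share was called. Sign changed for these small changes: Cdkn1b (0.015 with quantile normalization and -0.21 to 0.18 with 1 array left out), Nus1 (0.035 with quantile normalization), Epcam (-0.080) and Muc2 (-0.031) with median centring, and Ttc14 (-0.072 with probe sets averaged). The cause was not tested.

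Leaving out 1 array gave 6480 to 7159 called genes, 3825 to 4203 higher and 2655 to 3033 lower, 1248 to 1303 at least 2-fold apart, 2025 to 3394 for the midpoint contrast, 2252 to 3122 for ligand and 5037 to 6301 for inhibitor against untreated, a difference in the beta-actin ratio of 0.201 to 0.293, and 124 (without inhibitor replicate 2) to 204 genes with opposite probe sets, 136 without ligand replicate 1. Replicate numbers are shared by the groups, but same-numbered ligand and inhibitor arrays did not deviate together (correlations of -0.0148, -0.0793 and -0.0265), so the numbers do not pair the arrays. A replicate block gave 7151 calls. The fit on ligand and inhibitor arrays only has no midpoint contrast. Signals near the filter level limit what dim genes can show.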

Other observations

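Regional, channel and stress genes were not described above. Proximal small intestine genes were lower with ligand in 13 of 21 members and higher in 5, with a median log2 change of -0.36, and distal ones lower in 9 of 14 and higher in 2, with a median of -0.79, so genes of both ends were lower in their majority of called members. Rbp2, a retinol-binding protein of the proximal intestine, differed by -1.65 ± 0.10 and the distal mucin gene Muc3 by -1.94 ± 0.09. Among intestinal identity factors 10 of 20 were higher and 5 lower, led by Ehf (1.93 ± 0.07), Foxa2 (1.83 ± 0.09), Gata5 (1.67 ± 0.11) and Foxa3 (1.46 ± 0.10), while Cdx2, the main intestinal homeobox factor, differed by 0.26 ± 0.08 and lost its call with median centring (0.10, adjusted p 0.432, limma) and with its probe sets averaged (0.13, adjusted p 0.14). Among water, chloride and potassium channels 12 of 25 were higher and 8 lower: Ano1, the potassium channels Kcnn4 (1.93 ± 0.08) and Kcnq1 (1.37 ± 0.08), which drive chloride secretion, were higher, and the chloride and bicarbonate exchangers Slc26a6 (-2.01 ± 0.11) and Slc26a3 (-1.01 ± 0.12) of absorptive cells lower. The median of that list, 0.07, turned to -0.08 with median centring. Genes of sterol synthesis were lower in 11 of 20 and higher in 0, led by Insig1 (-1.06 ± 0.07), those of p53 and apoptosis lower in 14 of 27 and higher in 3, with Fas, a death receptor (-1.95 ± 0.12), and Bcl2, which blocks apoptosis (1.23 ± 0.10), at opposite ends, and those of glycolysis and hypoxia lower in 16 of 31 and higher in 2. The list of EGF family and ERK feedback genes had 9 of 24 members lower and 8 higher, with a median of -0.01, and the lower members included the ERK phosphatase genes Dusp5 (-2.01 ± 0.15) and Dusp6 (-1.24 ± 0.07).

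In 207 of the 6139 genes with several probe sets above the filter, probe sets were called in both directions between ligand and inhibitor. In Rmdn1 the probe set used read 592 ± 97 with ligand and 1067 ± 20 with inhibitor, and another read 331 ± 21 and 123 ± 16, changes of -0.85 and 1.33. In Nus1 a pair of probe sets differed by -1.01 and 0.83, in Ttc14 by -1.38 and 0.86, and in Ptdss2 by -1.25 and 0.75. The higher Ptdss2 probe set was dim, at 49.0 ± 8.6 with ligand and 23.4 ± 9.5 with inhibitor, the latter under the filter level. Every other Ptdss2 probe set above the filter was lower, and the one used read 1382 ± 153 against 1951 ± 126. The beta-actin control ratio differed between the same groups, with means of 0.468 and 0.211, and its part in these values was not tested.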
